A study of Homo sapiens with 18 samples.

Results

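The genes described here are the guanylate-binding protein genes GBP1, GBP2, GBP3, GBP4 and GBP5, chosen by symbol, 5 of the 60609 gene identifiers that were counted. They were followed in OCI-AML1 cells, an established human acute myeloid leukaemia line labelled as wild type. The cells had been exposed to AML874, to SEL120-34A or to the vehicle DMSO for 8 h or 24 h, and each of these 6 groups was sequenced as 3 poly(A)-selected libraries. SEL120-34A blocks the Mediator-associated kinases CDK8 and CDK19, and AML874 is known from the labels by its code name only. The labels give no dose, so the compounds were compared at matched times with their doses unknown, and they do not say whether the 3 libraries of a group came from separate cultures. The p-values below therefore measure the spread between libraries, which may be technical.

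The family was taken up because GBP4 was among the largest rises at 24 h with both compounds. For that reason the changes against DMSO at 24 h, the change in DMSO between the times, and any value built on these are given as descriptions with their standard errors and no test. Tests are given for each compound against DMSO at 8 h and for AML874 against SEL120-34A at both times. The 24 h libraries of both compounds also entered the choice of the family. The p-values between the compounds that use these libraries may therefore not be free of that choice, above all for GBP4. A gene is called when its p-value from edgeR's quasi-likelihood test, adjusted by Benjamini-Hochberg over the 20920 genes tested, is under 0.05.

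GBPs are large GTPases of the dynamin superfamily that cells make in response to interferons, above all interferon-gamma. The interferon-gamma receptor signals through the kinases JAK1 and JAK2, and the response runs through gamma-activated sites (GAS) in promoters and induces the transcription factor IRF1. IRF1 then acts at interferon-stimulated response elements (ISRE). In infected human cells GBP1 assembles on the surface of cytosolic bacteria and recruits GBP2, GBP3 and GBP4, a coat at which caspase-4 is activated. GBP1, GBP2 and GBP5 carry a lipid (prenyl) anchor, and GBP2 and GBP5 also restrict enveloped viruses by inhibiting the protease furin. Myeloid cells such as macrophages are a main setting of these functions.

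All members lie in a cluster on chromosome 1 (GRCh38, GENCODE 29), each transcribed from the minus strand. From the low end, GBP3 spans 89006666 to 89022894, GBP1 spans 89052319 to 89065360, GBP2 spans 89106132 to 89150456, GBP4 spans 89181148 to 89198932 and GBP5 spans 89258950 to 89272804. GBP7, on the same strand, spans 89131751 to 89176040 and overlaps GBP2. GBP6, on the plus strand, spans 89364058 to 89386461 beyond GBP5.

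**Figure D1:**
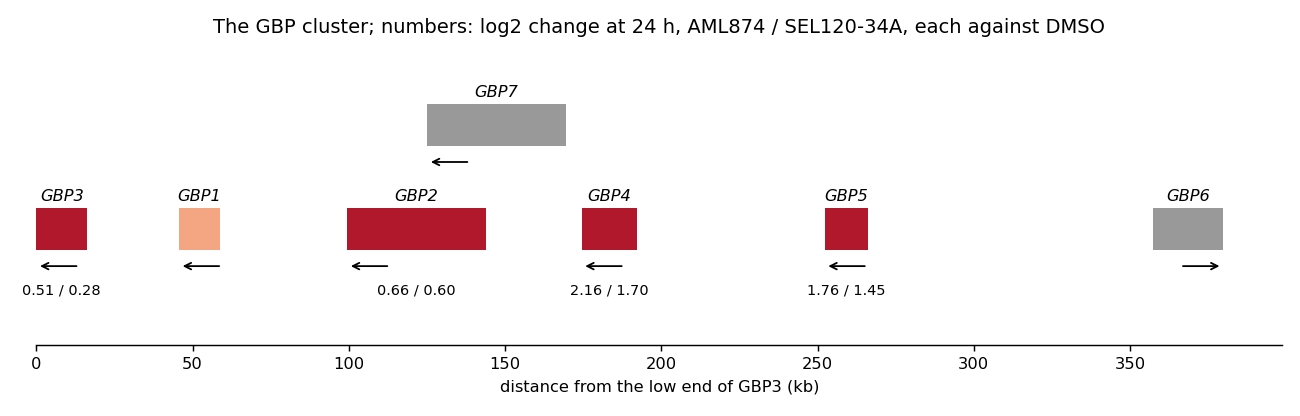
Map of the GBP genes on chromosome 1, to scale, with distance from the low end of GBP3 in kb on the x axis and arrows for the direction of transcription. Dark red boxes are GBP2 to GBP5, with their log2 change at 24 h against DMSO for AML874 and then SEL120-34A below each box. The light box is GBP1, whose few counts are described apart, and grey boxes are GBP6 and GBP7, which had too few counts to test. Among GBP2 to GBP5 the larger changes are 2.16 and 1.70 for GBP4 and 1.76 and 1.45 for GBP5. GBP1, which lies between GBP3 and GBP2, is not part of this ranking.

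The promoter sequences are shown because interferon signalling is the known route to these genes. The RefSeq promoter table (GRCh38.p14) holds GBP1, GBP3 and GBP4, with 250 bases before and 50 bases after each gene's start. Capitals mark matches, on either strand, to an ISRE core written GAAANNGAAA (TTTCNNTTTC on the other strand) or to a GAS written TTCNNNGAA. The GBP1 promoter is chr1:89065159-89065458, the GBP3 promoter chr1:89022817-89023116 and the GBP4 promoter chr1:89198893-89199192, each read 5′ to 3′ on the minus strand.
GBP1: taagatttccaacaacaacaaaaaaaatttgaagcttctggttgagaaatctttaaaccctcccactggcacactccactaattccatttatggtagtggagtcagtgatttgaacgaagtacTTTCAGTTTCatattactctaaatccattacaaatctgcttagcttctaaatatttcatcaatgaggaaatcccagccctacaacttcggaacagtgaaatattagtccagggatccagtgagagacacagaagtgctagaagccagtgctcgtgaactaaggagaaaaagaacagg
GBP3: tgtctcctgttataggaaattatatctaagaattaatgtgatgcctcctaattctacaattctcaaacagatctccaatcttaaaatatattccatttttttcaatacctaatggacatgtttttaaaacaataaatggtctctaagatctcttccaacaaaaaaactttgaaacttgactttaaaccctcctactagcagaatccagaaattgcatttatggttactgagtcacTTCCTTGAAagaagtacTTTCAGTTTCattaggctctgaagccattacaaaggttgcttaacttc
GBP4: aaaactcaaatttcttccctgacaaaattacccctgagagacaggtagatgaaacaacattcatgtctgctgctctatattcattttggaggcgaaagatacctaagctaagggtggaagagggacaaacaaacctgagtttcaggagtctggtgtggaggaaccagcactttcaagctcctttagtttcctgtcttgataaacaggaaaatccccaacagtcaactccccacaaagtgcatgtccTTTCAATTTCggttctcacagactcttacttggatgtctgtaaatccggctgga
Each of the 3 windows held the ISRE core, which began 127 bases before the RefSeq start in GBP1, 4 bases before it in GBP4 and at the third base from it in GBP3. The RefSeq starts differ from those of the GENCODE spans given above. By the GENCODE spans the GBP1 and GBP3 matches lie inside the gene, and the GBP4 match lies before it. The GBP1 and GBP3 matches read TTTCAGTTTC and the GBP4 match TTTCAATTTC. A match to the GAS letters was found in GBP3, TTCCTTGAA, beginning 15 bases before the RefSeq start. The letters TTCNNNGAA did not occur in the GBP1 or GBP4 window. A GAS that departs from these letters is missed, so the search does not show that GBP1 or GBP4 lacks one. Of 35116 RefSeq promoter windows of the same length, 3.57% held the ISRE core, 7.66% the GAS and 0.439% both. The windows of GBP6 and GBP7 held neither. These are letter matches and say nothing of binding.

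Library depth was even, from 98975944 to 142496541 counts assigned to genes, so that a floor of 3 counts corresponds to between 0.0211 and 0.0303 CPM (per-million counts, which set each count against its library's total). All 5 members passed the filter on low counts, but GBP1 did so through 4 libraries, all of them from compound-treated groups, so GBP1 is described apart. The libraries also varied within groups along a common axis that carried 35.0% of the within-group variance over 10485 genes. The 4 libraries highest on it were replicate 2 of SEL120-34A at 24 h, replicate 3 of DMSO at 8 h, replicate 2 of SEL120-34A at 8 h and replicate 1 of AML874 at 24 h. The library with the highest GBP2 level was the highest on this axis in 6 of 6 groups, and that with the highest GBP3 level in 5 of 6, against 2 of 6 for GBP4 and for GBP5. Values without these 4 libraries, an alternative chosen after seeing the data, are given beside the GBP2 results.

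Of 7 markers of the labelled cell type, the AML blast, CD33, MPO, SPI1, CEBPA, PTPRC and CSF3R were detected, while ANPEP was under 0.1 CPM in every library. The summed level of the 7 ranged over the libraries of a group from 843 to 846 CPM with AML874, 898 to 915 CPM with SEL120-34A and 942 to 952 CPM with DMSO at 8 h, and at 24 h from 763 to 773 CPM with AML874, 819 to 827 CPM with SEL120-34A and 874 to 914 CPM with DMSO. The sum covers members that moved apart. Of 6 tested, 1 was called higher and 5 lower with AML874 at 24 h, and 1 and 4 with SEL120-34A. Over all genes tested, 23.7% and 18.6% were called lower. MPO averaged 4.79 CPM with AML874, 12.1 CPM with SEL120-34A and 35.0 CPM with DMSO at 24 h. PTPRC averaged 353 CPM with AML874, 349 CPM with SEL120-34A and 315 CPM with DMSO. T cell markers summed to between 5.83 and 8.00 CPM with AML874, 6.97 and 7.49 CPM with SEL120-34A and 3.32 and 4.95 CPM with DMSO at 24 h, and at 8 h to between 3.00 and 3.40 CPM with AML874, 5.57 and 7.24 CPM with SEL120-34A and 2.16 and 2.30 CPM with DMSO. That sum was carried by TRAC, since CD3D, CD3E, CD3G and CD2 were under 0.1 CPM in every library. Of the B cell, NK cell, erythroid and endothelial lists, MS4A1, KLRD1, all 3 erythroid genes, CDH5 and KDR were under 0.1 CPM throughout, and HBA1 and HBB had 0 counts in all 18 libraries. The NK cell list summed at 24 h to between 87.8 and 90.7 CPM with AML874, 83.9 and 94.6 CPM with SEL120-34A and 84.4 and 92.8 CPM with DMSO, nearly all of it NCAM1. The B cell list summed at 24 h to between 0.675 and 0.708 CPM with AML874, 0.550 and 0.788 CPM with SEL120-34A and 1.15 and 1.55 CPM with DMSO. Endothelial markers summed to between 48.4 and 51.5 CPM with AML874, 53.1 and 57.7 CPM with SEL120-34A and 66.2 and 75.3 CPM with DMSO at 24 h. Nearly all of that sum was PECAM1, which averaged 49.9 CPM with AML874, 54.6 CPM with SEL120-34A and 69.4 CPM with DMSO. The part of these lists in the GBP levels was not tested. In bulk libraries fewer cells of a type and less RNA per cell cannot be told apart.

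Measured per length, the members kept a fixed order in all 6 groups. On the scale of TPM (per-million transcripts, which also corrects for gene length) GBP2 was the most abundant, followed by GBP3, GBP4, GBP5 and GBP1. With AML874 at 24 h GBP2 averaged 22.5 ± 2.71 TPM, GBP3 7.31 ± 0.230 TPM, GBP4 2.74 ± 0.370 TPM and GBP5 0.527 ± 0.167 TPM (SD, n = 3). In DMSO at 24 h GBP2 averaged 13.4 ± 2.25 TPM, GBP3 5.12 ± 0.230 TPM, GBP4 0.700 ± 0.0608 TPM and GBP5 0.137 ± 0.0321 TPM (SD, n = 3). GBP1 was listed between 0 and 0.17 TPM over all libraries. Neighbours in this order did not overlap between libraries in any group, except GBP2 (5.10 ± 0.518 TPM) and GBP3 (4.39 ± 0.434 TPM) with AML874 at 8 h. Summed over the 5 members, the level was 10.3 ± 0.717 TPM with AML874, 14.0 ± 0.643 TPM with SEL120-34A and 11.8 ± 1.14 TPM with DMSO at 8 h. At 24 h the sum was 33.2 ± 2.42 TPM with AML874, 29.8 ± 2.34 TPM with SEL120-34A and 19.3 ± 2.41 TPM with DMSO (SD, n = 3 each). GBP2 made up 67.8% of the sum with AML874 at 24 h, 70.5% with SEL120-34A and 68.9% with DMSO, and at 8 h it made up 49.5% with AML874, 56.8% with SEL120-34A and 58.5% with DMSO.

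The members did not move as a block, as the plot of GBP1 to GBP5 in every library shows. At 24 h every library of either compound lay above every DMSO library for GBP2, GBP3, GBP4 and GBP5. Of all genes tested, 26.4% did so with AML874 and 23.1% with SEL120-34A. These contrasts chose the family, so nothing is read from that count. The change was large for GBP4 and GBP5 and small for GBP2 and GBP3. At 8 h GBP4 was already higher with SEL120-34A, while with AML874 it had barely moved and GBP2 was lower than in DMSO. AML874 gave the lower GBP2, GBP3 and GBP4 levels of the pair at 8 h and the higher GBP3 and GBP4 levels at 24 h.

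**Figure D2:**
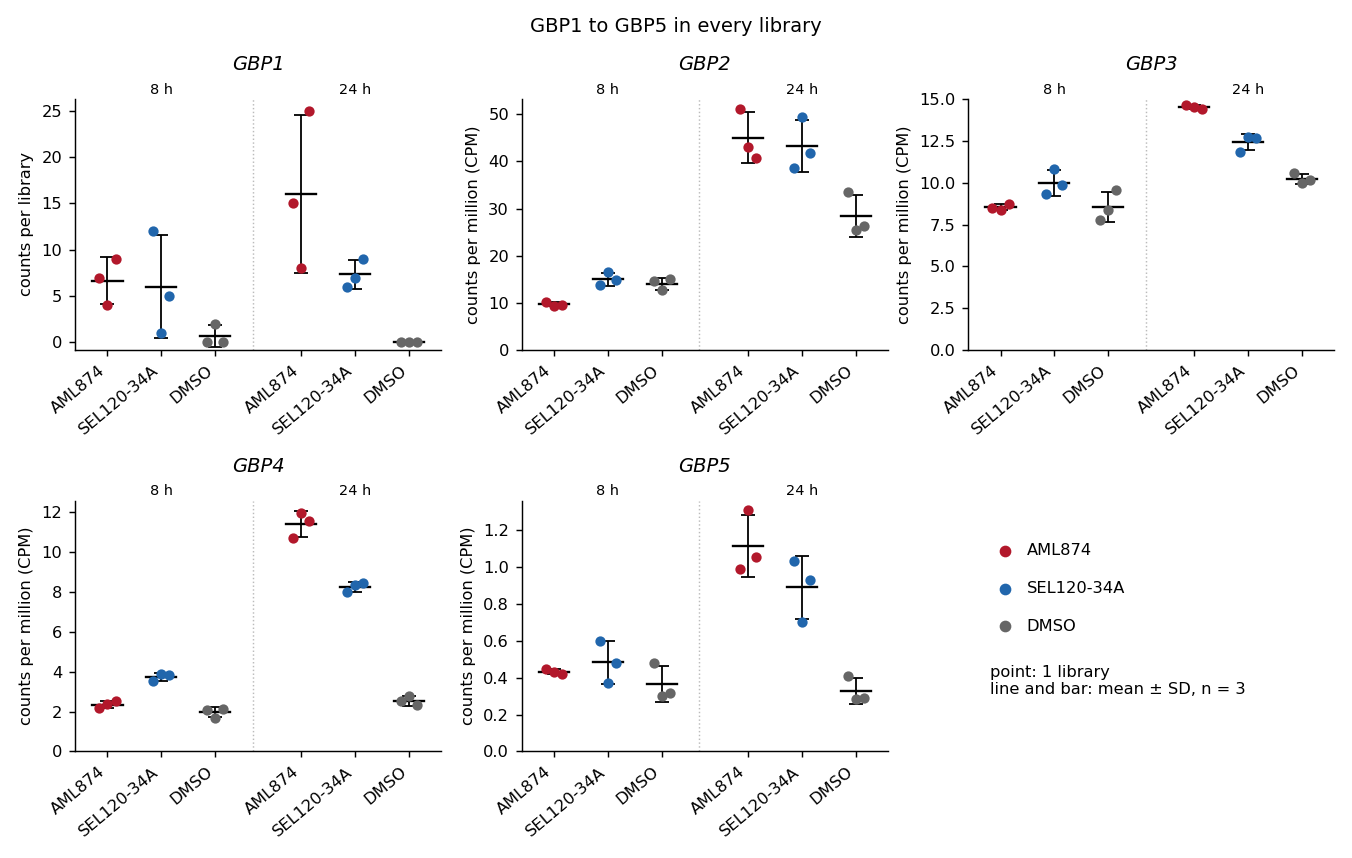
Level of each member in all 18 libraries, as counts per library for GBP1 and as CPM for GBP2 to GBP5 (y axes), by compound and time (x axis). Points are libraries, and lines with bars are means ± SD (n = 3). GBP4 stands at 10.7 to 12.0 CPM with AML874 and 7.98 to 8.45 CPM with SEL120-34A at 24 h, above 2.31 to 2.80 CPM with DMSO, while at 8 h GBP2 with AML874, 9.23 to 10.1 CPM, lies under all DMSO libraries.

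GBP4, which GBP1 recruits to the bacterial coat, had 10.7, 12.0 and 11.5 CPM in the libraries with AML874 at 24 h, 7.98, 8.34 and 8.45 CPM with SEL120-34A and 2.54, 2.80 and 2.31 CPM with DMSO. The 3 groups do not overlap, and they are ordered AML874, SEL120-34A, DMSO. The log2 change against DMSO was 2.16 ± 0.08 for AML874 and 1.70 ± 0.08 for SEL120-34A (SE, n = 3 each), a description since these values chose the family. At 8 h GBP4 had 2.16, 2.36 and 2.54 CPM with AML874, 3.52, 3.86 and 3.82 CPM with SEL120-34A and 2.08, 1.70 and 2.15 CPM with DMSO. All SEL120-34A libraries were above those of both other groups, whereas the lowest AML874 library was close to the highest DMSO library. GBP4 rose with SEL120-34A at 8 h, by 0.92 ± 0.09 on the log2 scale (SE, n = 3 each, edgeR adjusted p = 3.04e-10), and stayed called under every alternative run. With AML874 at 8 h its log2 change was 0.26 ± 0.10 (edgeR adjusted p = 0.0346), a call that was lost without AML874 replicate 2 (0.23, edgeR adjusted p = 0.0948), without AML874 replicate 3 (0.19, edgeR adjusted p = 0.174) or without DMSO replicate 2 (0.13, edgeR adjusted p = 0.340). Over all alternatives that adjusted p ranged between 0.00521 and 0.340.

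Between the compounds GBP4 changed sides with time. AML874 was lower than SEL120-34A at 8 h by a log2 difference of -0.67 ± 0.09 (SE, edgeR adjusted p = 3.34e-07) and higher at 24 h by 0.46 ± 0.07 (edgeR adjusted p = 1.54e-05). The difference of these differences, 24 h minus 8 h, was 1.13 ± 0.12 (SE, edgeR adjusted p = 1.08e-08), a comparison added after seeing the data. It and the 24 h comparison use the compound libraries whose GBP4 levels led to the choice of the family, so their p-values may not be free of that choice. Relative to DMSO at the same time, the GBP4 log2 change with AML874 was larger by 1.90 ± 0.13 at 24 h than at 8 h, and that with SEL120-34A by 0.77 ± 0.12 (SE).

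GBP3, also recruited to the coat, moved less and more evenly. It had 14.7, 14.5 and 14.4 CPM with AML874 at 24 h, 11.9, 12.8 and 12.7 CPM with SEL120-34A and 10.6, 9.96 and 10.1 CPM with DMSO. The groups again did not overlap and stood in the same order as for GBP4, with log2 changes against DMSO of 0.51 ± 0.06 for AML874 and 0.28 ± 0.06 for SEL120-34A (SE, n = 3 each). At 8 h GBP3 had 8.52, 8.38 and 8.72 CPM with AML874, 9.30, 10.8 and 9.88 CPM with SEL120-34A and 7.75, 8.37 and 9.55 CPM with DMSO. Here the AML874 libraries lay within the DMSO range, and the SEL120-34A libraries overlapped it. The log2 change with AML874 at 8 h was -0.01 (95% interval -0.13 to 0.12, edgeR adjusted p = 0.958). With SEL120-34A at 8 h GBP3 rose by 0.22 ± 0.06 (SE, edgeR adjusted p = 0.00354), a call lost without SEL120-34A replicate 2 (0.15, edgeR adjusted p = 0.0703) or without DMSO replicate 1 (0.15, edgeR adjusted p = 0.0705), with a range over alternatives of 0.000289 to 0.0705.

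AML874 against SEL120-34A gave a GBP3 log2 difference of -0.23 ± 0.06 at 8 h (SE, edgeR adjusted p = 0.00422) and 0.22 ± 0.06 at 24 h (edgeR adjusted p = 0.00523). The first was -0.17 with an edgeR adjusted p of 0.0530, the upper end of its range over alternatives (0.000562 to 0.0530), without SEL120-34A replicate 2, a library at the high end of the common axis. The 24 h minus 8 h difference between the compounds was 0.45 ± 0.09 for GBP3 (SE, edgeR adjusted p = 0.000205).

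GBP2, a prenylated furin inhibitor and the most abundant member, was the only member of GBP2 to GBP5 whose fitted change with AML874 was called lower at 8 h. It had 10.1, 9.23 and 9.58 CPM with AML874 at 8 h, 13.7, 16.4 and 14.9 CPM with SEL120-34A and 14.5, 12.6 and 15.0 CPM with DMSO. All AML874 libraries were below all others, and the SEL120-34A and DMSO libraries overlapped. GBP2 fell with AML874 at 8 h, with a log2 change of -0.54 ± 0.14 (SE, n = 3 each, edgeR adjusted p = 0.00945), and stayed called under every alternative, with adjusted p from 3.54e-08 to 0.0329. Without the 4 libraries highest on the common axis the change was -0.50 (edgeR adjusted p = 0.0158). With SEL120-34A at 8 h the log2 change was 0.10 (95% interval -0.21 to 0.40, edgeR adjusted p = 0.617), and AML874 against SEL120-34A differed by -0.64 ± 0.14 (SE, edgeR adjusted p = 0.00412).

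At 24 h GBP2 had 51.2, 43.2 and 40.8 CPM with AML874, 38.7, 49.4 and 41.8 CPM with SEL120-34A and 33.5, 25.5 and 26.3 CPM with DMSO. Both compound groups were above DMSO and overlapped each other. The log2 change against DMSO was 0.66 ± 0.12 for AML874 and 0.60 ± 0.12 for SEL120-34A (SE, n = 3 each), and without the 4 libraries highest on the common axis it was 0.56 for AML874 and 0.49 for SEL120-34A. AML874 and SEL120-34A differed by 0.06 at 24 h (95% interval -0.21 to 0.33, edgeR adjusted p = 0.799), so differences of up to about 0.33 in size are not shown to be absent. The 24 h minus 8 h difference between the compounds was 0.70 ± 0.19 (SE, edgeR adjusted p = 0.0222). That call was lost in 5 of the fits that left out a library, namely replicate 2 of AML874 or of SEL120-34A at 8 h, replicate 1 of AML874 at 24 h, and replicate 1 or 3 of SEL120-34A at 24 h, where the value lay between 0.59 and 0.67, and its edgeR adjusted p ranged from 0.00122 to 0.0563 over all alternatives.

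GBP5, the other prenylated furin inhibitor, was low throughout. It had 0.986, 1.31 and 1.05 CPM with AML874 at 24 h, 1.03, 0.702 and 0.929 CPM with SEL120-34A and 0.410, 0.283 and 0.288 CPM with DMSO. Both compound groups stood above DMSO and overlapped each other. The log2 change against DMSO was 1.76 ± 0.20 for AML874 and 1.45 ± 0.21 for SEL120-34A (SE, n = 3 each), and the compounds differed by 0.32 at 24 h (95% interval -0.05 to 0.69, edgeR adjusted p = 0.248). At 8 h it had 0.446, 0.429 and 0.421 CPM with AML874, 0.601, 0.371 and 0.477 CPM with SEL120-34A and 0.479, 0.302 and 0.316 CPM with DMSO, and the groups overlapped. The log2 change at 8 h was 0.27 (95% interval -0.20 to 0.74, edgeR adjusted p = 0.391) with AML874 and 0.43 (95% interval -0.03 to 0.90, edgeR adjusted p = 0.128) with SEL120-34A. Without DMSO replicate 1 the SEL120-34A value was 0.64 (edgeR adjusted p = 0.0406, from a range of 0.0406 to 0.528). The compounds differed by -0.16 at 8 h (95% interval -0.61 to 0.28, edgeR adjusted p = 0.633), and by 0.48 between the times (95% interval -0.10 to 1.06, edgeR adjusted p = 0.276).

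GBP1, which starts the coat and recruits the others, was close to the limit of detection. The libraries held 15, 8 and 25 counts with AML874 at 24 h, 6, 7 and 9 counts with SEL120-34A and 0, 0 and 0 counts with DMSO. With a floor of 3 counts put in place of 0 in each DMSO library, the pooled ratio at 24 h was 5.86 for AML874 and 2.71 for SEL120-34A. These ratios carry no counting interval and are not lower bounds. With unstranded counts, which add the opposite strand, the fitted log2 change at 24 h was 2.43 for AML874 and 1.04 for SEL120-34A. At 8 h there were 7, 4 and 9 counts with AML874, 12, 1 and 5 counts with SEL120-34A and 0, 2 and 0 counts with DMSO. The ratio to DMSO at 8 h was 9.19 for AML874 (20 against 2 counts, 95% counting interval 2.23 to 81.1) and 8.80 for SEL120-34A (18 against 2 counts, 2.11 to 78.2), intervals that cover counting error only. Since GBP1 passed the filter through compound-treated libraries, no test is given for it. Between the compounds 20 counts with AML874 stood against 18 with SEL120-34A at 8 h, and 48 against 22 at 24 h.

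Both compounds moved a large part of the transcriptome, against which the members' counts are read. GBP1 is left out of these counts. With AML874 at 8 h GBP4 was called higher and GBP2 lower, where 39.6% of all genes tested were called, and GBP2 alone remained in the fits, given above, that lost the GBP4 call. With SEL120-34A at 8 h GBP3 and GBP4 were called higher, where 22.4% of genes were. In AML874 against SEL120-34A at 8 h GBP2, GBP3 and GBP4 were called lower, where 15.2% of genes were, and at 24 h GBP3 and GBP4 were called higher, where 8% of genes were. The 24 h minus 8 h difference between the compounds was called higher for GBP2, GBP3 and GBP4, where 7.02% of genes were. At 24 h, where the rule used the contrast, libraries stood wholly above DMSO in 26.4% of genes with AML874 and 23.1% with SEL120-34A, and nothing is read from the members there. At 24 h the median log2 change of GBP2 to GBP5 was 1.21 with AML874 (0.0036 over all genes tested) and 1.03 with SEL120-34A (0.0053), and at 8 h it was 0.13 with AML874 (0.0023 over all genes) and 0.33 with SEL120-34A (-0.0011). The AML874 median at 8 h was 0.078 without AML874 replicate 3, 0.044 without DMSO replicate 2 and 0.058 with unstranded counts.

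**Figure D3:**
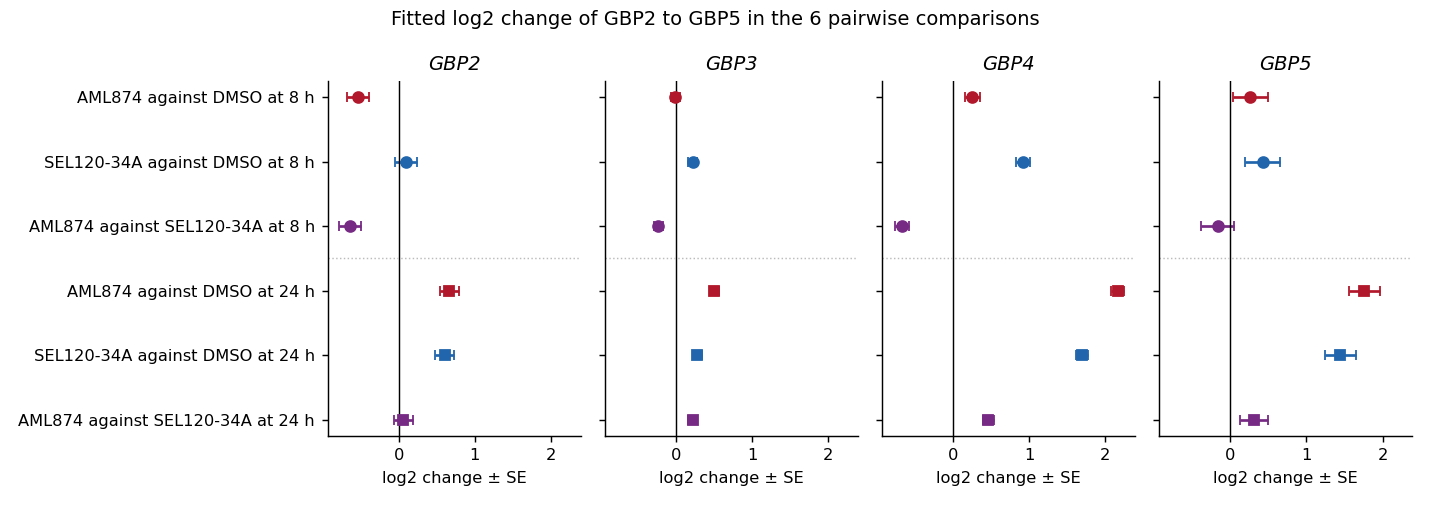
Fitted log2 change (x axis, ± SE) of GBP2 to GBP5 in the 6 pairwise comparisons (y axis), with circles at 8 h and squares at 24 h. The AML874 against SEL120-34A values of GBP4 lie at -0.67 at 8 h and 0.46 at 24 h, on opposite sides of 0, while those of GBP2 lie at -0.64 and 0.06.

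The vehicle itself was not constant over time. DMSO at 24 h against DMSO at 8 h had a log2 change of 1.02 ± 0.13 for GBP2, 0.25 ± 0.06 for GBP3, 0.38 ± 0.10 for GBP4 and -0.14 ± 0.24 for GBP5 (SE, n = 3 each, with no test). For GBP2, GBP3 and GBP4 every 24 h library was above every 8 h library, where 23.8% of all genes were, and for GBP5 the times overlapped. GBP2 thus stood at 28.4 ± 4.41 CPM in DMSO at 24 h and 14.0 ± 1.27 CPM in DMSO at 8 h (SD, n = 3 each).

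IRF1, a transcription factor upstream of the family, was higher with both compounds at both times. IRF1 averaged 103 ± 1.85 CPM with AML874, 90.0 ± 1.69 CPM with SEL120-34A and 50.6 ± 1.24 CPM with DMSO at 24 h, and at 8 h 53.6 ± 0.227 CPM with AML874, 60.6 ± 1.59 CPM with SEL120-34A and 46.9 ± 1.45 CPM with DMSO (SD, n = 3 each). Its groups did not overlap at either time. At 8 h IRF1 rose on the log2 scale, by 0.19 ± 0.03 for AML874 and 0.37 ± 0.03 for SEL120-34A, and at 24 h by 1.03 ± 0.03 for AML874 and 0.83 ± 0.03 for SEL120-34A (SE). AML874 was lower than SEL120-34A for IRF1 at 8 h by -0.18 ± 0.03 (SE, edgeR adjusted p = 1.32e-05) and higher at 24 h by 0.19 ± 0.03 (edgeR adjusted p = 5.65e-06), the same order of the compounds at each time as for GBP3 and GBP4.

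The wider list of interferon receptor and signalling genes was divided. Over all genes tested, 23.1% were called higher and 23.7% lower with AML874 at 24 h, and 19.1% and 18.6% with SEL120-34A, while at 8 h the shares were 19.7% and 19.9% with AML874 and 22.4% and 22.6% with SEL120-34A. Of the list's 21 genes tested, 8 were called higher and 8 lower with AML874 at 24 h, and 9 and 8 with SEL120-34A, with list medians of -0.018 and 0.0062. At 8 h 7 were higher and 8 lower with AML874, and 6 and 7 with SEL120-34A. IFNGR1, the ligand-binding chain of the interferon-gamma receptor, rose by 0.50 ± 0.03 with AML874 at 24 h, and IRF8, a myeloid partner of IRF1, by 0.66 ± 0.02. With SEL120-34A at 24 h IRF8 rose by 0.53 ± 0.02 and JAK2 by 0.40 ± 0.03 on the log2 scale (SE). Of the genes called lower at 24 h, picked after their values were seen, IFNGR2, the other chain of the receptor, had -0.18 ± 0.04 with AML874 and -0.15 ± 0.04 with SEL120-34A. SOCS3, a feedback inhibitor of cytokine signalling, had -0.62 ± 0.09 with AML874 and -0.50 ± 0.09 with SEL120-34A (SE). IFNG, the gene of the ligand, had no counts in any library, which allows up to 0.0303 CPM in the shallowest.

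Interferon target genes outside the family were mostly higher at 24 h. Of 21 interferon-gamma target genes tested, 14 were called higher and 2 lower with AML874 at 24 h (median log2 change 0.29), and 13 and 3 with SEL120-34A (median 0.20). TAP1, which carries peptides to MHC class I, rose by 0.71 ± 0.03 and 0.53 ± 0.03, CIITA, the master activator of MHC class II, by 0.88 ± 0.04 and 0.69 ± 0.04, and UBE2L6, which conjugates ISG15, by 0.55 ± 0.03 and 0.36 ± 0.03 with AML874 and SEL120-34A. At 8 h 10 were called higher and 3 lower with AML874, and 10 and 4 with SEL120-34A, with medians of 0.10 and 0.15. Of 20 type I interferon target genes tested, 14 were higher and 1 lower with AML874 at 24 h (median 0.68), and 11 and 1 with SEL120-34A (median 0.29). RSAD2, the antiviral protein viperin, rose by 2.15 ± 0.08 with AML874 and 1.46 ± 0.08 with SEL120-34A, and IFIT3, which binds viral RNA complexes, by 0.87 ± 0.07 for AML874 and 0.54 ± 0.07 for SEL120-34A. At 8 h 4 of these were higher and 2 lower with AML874, and 6 and 0 with SEL120-34A, where RSAD2 was higher by 1.73 ± 0.09 with AML874 and 1.28 ± 0.09 with SEL120-34A.

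The list of other interferon-inducible GTPases and atlastins was short and moved in both directions. The means of MX1, MX2 and ATL2 were below those with DMSO at 24 h with both compounds. MX1 averaged 0.762 CPM with AML874, 0.550 CPM with SEL120-34A and 0.929 CPM with DMSO. ATL2 averaged 81.5 CPM with AML874, 84.2 CPM with SEL120-34A and 93.1 CPM with DMSO. With AML874 only 2 of these 3 were called lower. Among the genes tested, the means above DMSO with AML874 at 24 h were those of IRGM, ATL1 and ATL3. MX2, a dynamin-like restriction factor of viruses, fell with AML874 at 24 h by 0.43 ± 0.09 on the log2 scale and with SEL120-34A by 0.34 ± 0.09, and MX1 fell with SEL120-34A by 0.76 ± 0.16. In this list of 6 genes tested, which also holds IRGM and the atlastins (GTPases that fuse the endoplasmic reticulum), 3 were called higher and 2 lower with AML874 at 24 h and 1 and 3 with SEL120-34A, and at 8 h 0 and 3 with AML874 and 0 and 2 with SEL120-34A. GBP7 had between 0 and 8 counts per library and GBP6 between 0 and 1, and neither passed the filter.

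Genes that act with the GBPs in pyroptosis, a lytic form of cell death, were mostly lower. Of 9 tested, 1 was called higher and 5 lower with AML874 at 24 h (median log2 change -0.21), 1 and 6 with SEL120-34A (-0.18), and at 8 h 1 and 6 with AML874 (-0.24) and 2 and 5 with SEL120-34A (-0.14). PYCARD, the inflammasome adaptor, had a log2 change of -0.52 ± 0.04 and -0.26 ± 0.04, NLRP3, an inflammasome sensor, -0.25 ± 0.03 and -0.18 ± 0.03, and NINJ1, which ruptures the dying cell's membrane, -0.50 ± 0.05 and -0.43 ± 0.05 at 24 h with AML874 and SEL120-34A (SE). GSDMD, the pore-forming gasdermin, was the gene called higher at 24 h, by 0.27 ± 0.03 with AML874 and 0.28 ± 0.03 with SEL120-34A. Of 6 genes tested for prenylation and GBP1 control, 0 were higher and 3 lower with AML874 at 24 h and 0 and 2 with SEL120-34A. Among them PIM1, a kinase that phosphorylates GBP1 in human macrophages, fell by 0.52 ± 0.03 with each compound at 24 h, and at 8 h the list had 0 higher and 1 lower with AML874 and 1 and 2 with SEL120-34A.

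**Figure D4:**
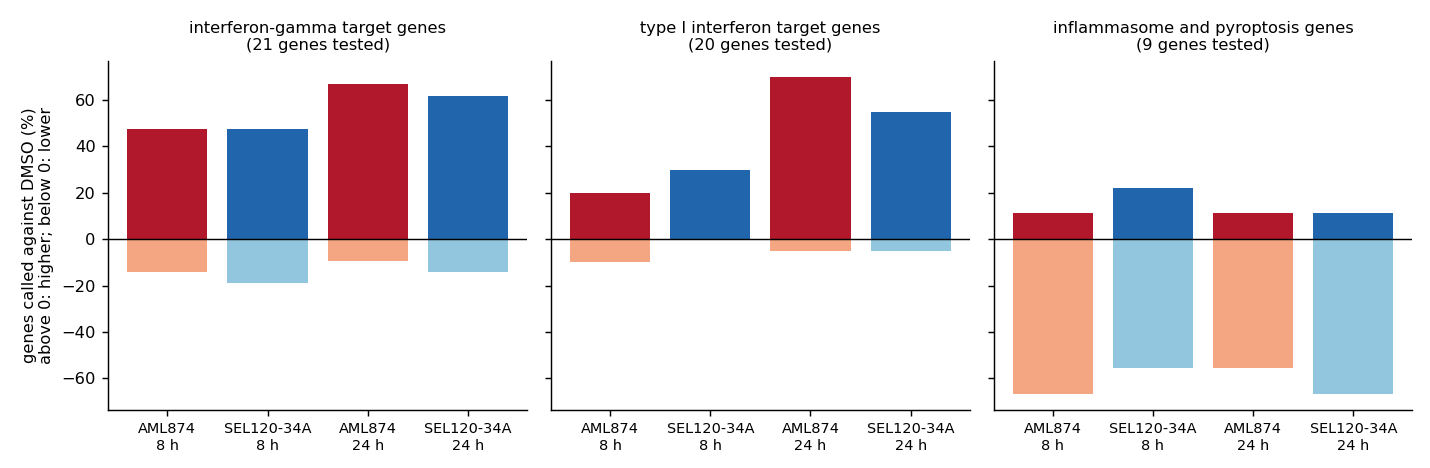
Share of the genes tested in each list (y axis, %) that were called higher (bars above 0, dark) or lower (bars below 0, light) against DMSO, for AML874 in red and SEL120-34A in blue at 8 h and 24 h (x axis). In the type I interferon list 14 of 20 genes were higher with AML874 and 11 of 20 with SEL120-34A at 24 h, against 4 and 6 at 8 h, while in the inflammasome list of 9 genes the lower calls outnumber the higher ones in all 4 comparisons.

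Over the 18 libraries GBP4 and GBP5 had the most alike profiles among GBP2 to GBP5, with a root mean square difference of centred log2 CPM of 0.43. GBP3 and GBP4 differed most, by 0.69, since the spread of log2 CPM over the libraries (SD) was 0.29 for GBP3 and 0.98 for GBP4. For each member the genes named were taken from the 3 nearest of 11196 protein-coding genes outside the family by the same measure. For GBP4 these include THSD7A (0.25) and FMN1 (0.26), and for GBP5 GCNT1 (0.29) and OAS2, a sensor of double-stranded RNA (0.29). THSD7A averaged 3.38 ± 0.507 CPM with AML874, 3.03 ± 0.393 CPM with SEL120-34A and 1.15 ± 0.209 CPM with DMSO at 24 h, and at 8 h 0.910 ± 0.0519 CPM with AML874, 1.31 ± 0.103 CPM with SEL120-34A and 0.652 ± 0.0755 CPM with DMSO (SD, n = 3 each). Like GBP4 it was thus lower with AML874 than with SEL120-34A at 8 h.

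For GBP2 the nearest were PIK3IP1 (0.16), BCL6 (0.22) and LSP1 (0.24), and for GBP3 they were LILRB4 (0.086), DHTKD1 (0.090) and BSPRY (0.091). PIK3IP1, a negative regulator of PI3 kinase, averaged 2.81 ± 0.259 CPM with AML874, 4.57 ± 0.609 CPM with SEL120-34A and 4.15 ± 0.279 CPM with DMSO at 8 h, and at 24 h 10.5 ± 1.08 CPM with AML874, 12.1 ± 0.727 CPM with SEL120-34A and 7.42 ± 0.841 CPM with DMSO (SD, n = 3 each). Its log2 change with AML874 at 8 h was -0.57, while those of BCL6, 0.06, and LSP1, -0.14, were smaller and their libraries overlapped those of DMSO. For GBP1, whose profile rests on few counts, they were MPEG1 (0.61), RSAD2 (0.64) and SETBP1 (0.65). These genes were chosen for their likeness and are given without a test.

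**Figure D5:**
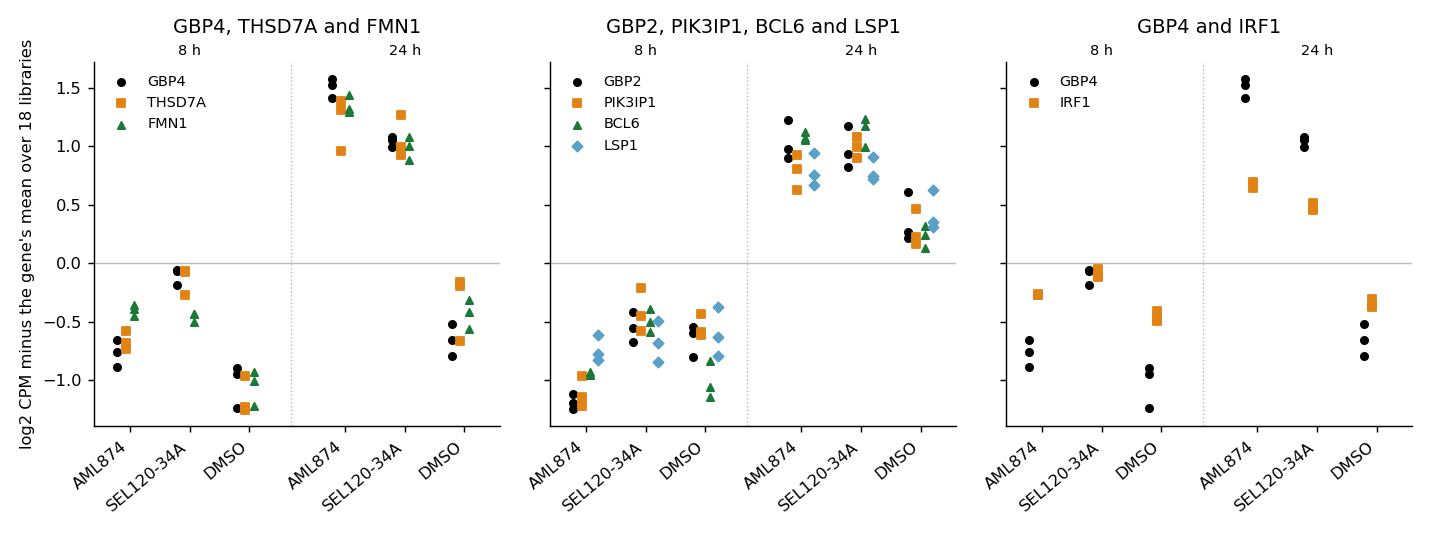
Profiles over the 18 libraries as log2 CPM minus each gene's own mean (y axis), by compound and time (x axis), with 1 point per library. The panels show GBP4 with THSD7A and FMN1, GBP2 with PIK3IP1, BCL6 and LSP1, and GBP4 with IRF1. Within each time IRF1 has the order of GBP4 over the compounds and DMSO, over a narrower range (SD of 0.44 on the log2 scale against 0.98 for GBP4).

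The tested protein-coding genes nearest to the cluster had small changes at 24 h. RBMXL1, 13706 bases from GBP3, had log2 changes of -0.12 ± 0.04 with AML874 and 0.06 ± 0.04 with SEL120-34A (SE, n = 3 each). LRRC8B, a subunit of volume-regulated anion channels, lies 98593 bases beyond GBP1P1, a GBP pseudogene on the far side of GBP6, and had -0.24 ± 0.03 with AML874 and -0.07 ± 0.03 with SEL120-34A (SE, n = 3 each). The transcript mix of GBP2 to GBP5, read as RSEM's abundance-weighted effective length, overlapped between compound and DMSO libraries in all but 1 of 16 comparisons. The exception was GBP2 with AML874 at 24 h, at 2473 ± 78.6 bases against 2713 ± 91.2 bases with DMSO (SD, n = 3 each), where the exact permutation p was 0.1, the smallest that 3 against 3 libraries allow.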

How the data were processed

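Per the submitters' processing notes, reads were handled with STAR 2.7.1a and RSEM 1.3.2 on GRCh38. The deposited STAR table of each of the 18 libraries lists whole-number counts per gene in unstranded, forward and reverse columns. The reverse column was used because the forward column held 6.27% to 6.66% of its total, and the 4 summary lines (21.9% to 25.5% of it) were left out. The deposited RSEM tables give TPM, expected counts and transcript lengths, which the authors made with RSEM and which were used for levels between genes, as an alternative after rounding to whole numbers, and for the transcript mix. Identifiers were matched without version to GENCODE 29 (58502 of 60609).

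A single model of the 6 groups was fitted with edgeR 4.0.16 (R 4.3.3; filterByExpr, TMM, robust quasi-likelihood), with Benjamini-Hochberg adjustment over the 20920 genes kept. CPM values use TMM-scaled totals. On simulated counts for AML874 against DMSO at 8 h (20445 genes tested), the fit called 182 of 200 changed genes and 11 of 20245 unchanged genes. None of the 153 pairs of libraries was identical. DESeq2 1.42.0 and limma 3.58.1 (voom), other scalings, filters, strand columns and left-out libraries were alternatives. The members and gene lists were chosen with earlier results of these data known. Named genes are all members, IRF1, GBP6 and GBP7, the 3 nearest profiles per member among protein-coding genes of at least 1 CPM, up to 4 genes of lowest p per list, and the nearest neighbours. A few of these are left out of the text. Same-numbered libraries deviated together in AML874 against DMSO at 24 h (correlations 0.374, 0.177 and 0.243) and not in every pair of any other comparison, so the block was not used in the main model.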

Additional observations from a re-analysis of the deposited data

Results flagged for a closer look

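The difference between AML874 and SEL120-34A was not the same at both times for 3 members, by the test of the difference itself. At 24 h minus 8 h the log2 difference was 1.13 for GBP4, 0.45 for GBP3 and 0.70 for GBP2, each called in edgeR's quasi-likelihood test (adjusted p = 1.08e-08, 0.000205 and 0.0222), a comparison added after seeing the data. That comparison uses the 24 h compound libraries whose GBP4 levels led to the choice of the family. The GBP2 call was lost in 5 of the fits that left out a library, and its adjusted p over all alternatives was 0.00122 to 0.0563. GBP2 also moved in opposite directions with AML874 at the 2 times, with a log2 change against DMSO of -0.54 at 8 h, where all 3 AML874 libraries were below all DMSO libraries, and 0.66 at 24 h, where all 3 were above. That difference in direction was not tested, because the 24 h values chose the family.

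The strand column that the comparisons do not use held a few counts at the members, above every DMSO library of the same time in some groups. The share of all genes that did so is not given here. At GBP1 the mean was 0.0643 CPM with AML874 at 8 h (2, 15 and 6 counts) and 0.0871 CPM with AML874 at 24 h. At GBP2 it was 0.177 CPM with AML874 at 8 h, 0.210 CPM with AML874 at 24 h and 0.201 CPM with SEL120-34A at 24 h. At GBP4 it was 0.0192 CPM with SEL120-34A at 24 h, where the libraries held 2, 2 and 3 counts, none above the floor of 3 counts.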

How the results depend on the processing

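No called value reversed under any alternative. At 8 h GBP2 with AML874 and GBP4 with SEL120-34A, each against DMSO, and GBP4 between the compounds at both times, kept their calls under every alternative. The 24 h GBP4 comparison uses the compound libraries that led to the choice of the family. Every alternative uses them too, so a kept call does not remove that limit. With AML874 against DMSO at 8 h the count of members called, GBP1 included, was 3. That count was 1 in a model of only the groups compared and 1 to 3 when a library was left out. The GBP1 call in it is not read as a result, since GBP1 passed the filter through compound-treated libraries only. Leaving GBP1 aside, the main model called GBP4 higher and GBP2 lower, where 39.6% of all genes tested were called. With rounded expected counts the median of GBP2 to GBP5 at 24 h was 1.31 for AML874 and 1.13 for SEL120-34A, and GBP2's share of the summed level with SEL120-34A at 8 h was 54.2% by CPM per length. Leaving out a library gave medians of 1.13 to 1.38 for AML874 and 0.93 to 1.19 for SEL120-34A against DMSO at 24 h, 0.21 to 0.31 between the compounds at 24 h, and 1.24 to 1.51 (AML874) and 0.58 to 0.73 (SEL120-34A) for the later minus the earlier change. The cause of these shifts was not tested. With the replicate block the GBP4 change with AML874 at 24 h was 2.16 and the median 1.22, and the block changed no call of a member in any comparison. Unstranded counts, which add the opposite strand, gave GBP1 changes at 24 h of 2.43 for AML874 and 1.04 for SEL120-34A, and fitted values for GBP1 against groups at 0 depend on the prior count. At these depths GBP1 and GBP5 carry the least precise changes.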
